A study of Glycine max with 18 samples.

Results

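The early flavonoid genes described here are chalcone synthase 8 (CHS8), the chalcone isomerase genes CHI4A and CHI2-A, flavanone 3-hydroxylase (F3H) and flavonol synthase 1 (FLS1). They were taken as the soybean probe sets that the array's probe table assigns to these names by symbol or synonym, and they are 5 of the 6029 genes to which that table gives exactly 1 symbol. All 5 genes were found, with 12 probe sets, and all 12 passed the filter on low signals. CHS8 had 5 probe sets, CHI4A, F3H and FLS1 had 2 each, and CHI2-A had 1. Each gene was read from its brightest probe set (by mean log2 signal over all arrays), and its other probe sets are described separately.

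The samples were soybean seeds of cultivar Asgrow A3237, 2.5 to 3.0 mm long, with embryos at the cotyledon stage. From fixed and embedded seeds 8 compartments were cut out of 8 µm sections by laser: embryo proper, suspensor (the stalk that carries the embryo proper), endosperm, epidermis, hilum (the scar where the seed was attached), outer integument, inner integument and endothelium. The last 5 of these belong to the seed coat, which is maternal tissue. The ninth group was whole seed, ground in liquid nitrogen, with RNA isolated by another reagent than that used for the captured tissue. Each group had 2 arrays, 18 in all, and no group was treated or carried a mutation. The labels do not say whether the arrays of a group came from separate plants or seeds, so each p-value measures the spread between these samples alone, which may be technical.

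Flavonoids are made from coumaroyl-CoA, a product of the phenylpropanoid pathway, and malonyl-CoA. Chalcone synthase joins them into a chalcone, chalcone isomerase closes the ring to give a flavanone, and flavanone 3-hydroxylase turns the flavanone into a dihydroflavonol. Flavonol synthase uses the dihydroflavonol to make flavonols, while dihydroflavonol reductase leads it towards anthocyanins and proanthocyanidins, the pigments and tannins of many seed coats. In legumes, chalcone reductase working with chalcone synthase also leads to the isoflavonoids.

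Values are linear signals per probe set. Of all soybean probe sets, 56.7% to 67.5% read 100 or more on an array, and the arrays of a group correlated at a Pearson r of 0.935 to 0.975 across probe sets. The table gives no detection calls, so the 95th percentile of the probe sets for other organisms served as a measure of background, and it ran from 106 to 216 over the arrays. It differed most between the arrays of a group in epidermis (134 and 213), inner integument (207 and 135) and outer integument (197 and 152). Checked against marker genes, ODC2 (9236 in suspensor and 259 in the next highest group, geometric means), CYSP2 (1794 in endosperm and 145 in the next) and KTI3 (2446 in embryo proper and 509 in the next) were highest in the tissue they mark. The seed coat peroxidase PRX2 was highest in outer integument, and no marker among those listed was particular to endothelium, inner integument or epidermis. The only listed marker highest in hilum was ANR1 (39308, with 15911 in the next), a gene of the proanthocyanidin branch that is also described below.

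All differences below are differences of mean log2 signal from 1 limma fit over all arrays, given with their standard error (SE), and adjusted p is by Benjamini and Hochberg over all tested soybean probe sets. Folds are ratios of geometric means, and the threshold is 0.05. Signals under 50 were set to 50 before log2 was taken. The signal of 1 probe set cannot be set against that of another, so the genes are compared by their patterns and not by their levels.

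CHS8, CHI4A and F3H were alike in hilum and epidermis, while their order of the other compartments differed. For each of them all 4 arrays of hilum and epidermis lay above all 12 arrays of the other 6 captured compartments. That pattern was found in 1.29% of tested probe sets, and it describes the signals without testing them. CHI2-A had the same pattern once the suspensor was set aside (1.72% of tested probe sets), but its highest signal was in the suspensor. FLS1 was weak in every group and highest in epidermis.

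**Figure D1:**
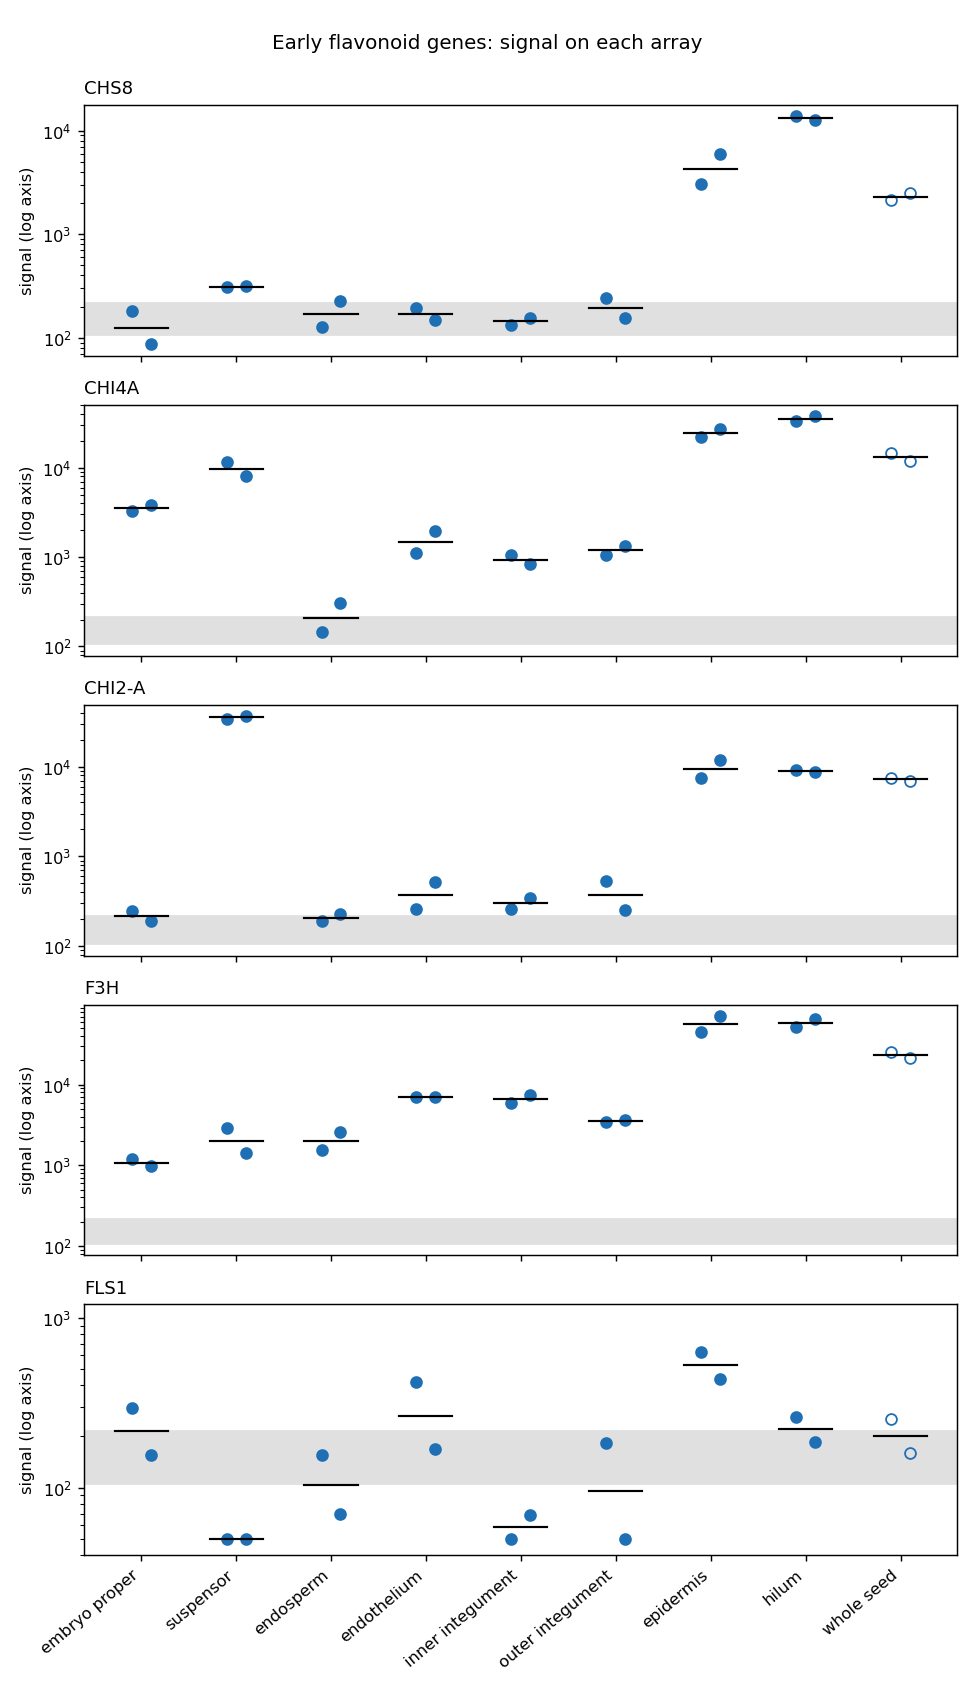
Signal of each early flavonoid gene on each array (log axis, arbitrary units) in the 9 groups, with filled circles for captured compartments, open circles for whole seed and black bars for geometric means. Signals under 50 are drawn at 50, and the grey band, 106 to 216, is the range over arrays of the 95th percentile of probe sets for other organisms. Hilum and epidermis stand high for CHS8, CHI4A, CHI2-A and F3H, the suspensor is highest for CHI2-A, and most FLS1 points lie in or near the band.

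CHS8 is a member of the chalcone synthase family, the enzymes that open the flavonoid pathway. Its signals were 13672 and 12681 in hilum, 3034 and 5950 in epidermis and 2133 and 2497 in whole seed. In the suspensor they were 308 and 314, above the background of those arrays. The signals were 183 and 86.2 in embryo proper, 128 and 224 in endosperm, 194 and 149 in endothelium, 134 and 155 in inner integument and 241 and 155 in outer integument. These 5 compartments overlapped one another and lay close to background, with embryo proper array 2 and inner integument array 1 under it. The geometric mean in hilum was 3.10 times that in epidermis (adjusted p = 0.0228). Without epidermis array 1 (0.229), hilum array 1 (0.121) or hilum array 2 (0.102) that difference no longer passed, nor did it with the mean of all CHS8 probe sets (0.111). Epidermis and whole seed were not separated (adjusted p = 0.176), whereas whole seed stood 7.41-fold above the suspensor (5.45e-05). Below that, no group differed from its neighbour in the order suspensor, outer integument, endothelium, endosperm, inner integument and embryo proper.

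Against the mean of the other 7 captured compartments, CHS8 was 47.1-fold higher in hilum (log2 fold 5.56 ± 0.33 SE, adjusted p = 1.68e-09) and 12.9-fold higher in epidermis (3.69 ± 0.33, 2.56e-07). As the other compartments sat near background, the size of these folds depends on the background. In the other 6 compartments the log2 fold was -2.11 in embryo proper, -0.62 in suspensor, -1.62 in endosperm, -1.61 in endothelium, -1.89 in inner integument and -1.40 in outer integument. All passed as lower but the suspensor, whose adjusted p was 0.184. The calls were lost in endosperm without its array 1 (0.0634), in endothelium without its array 2 (0.0530) and in outer integument without its array 2 (0.109). With the mean of all CHS8 probe sets they were lost in endothelium (0.211), inner integument (0.0582) and outer integument (0.269). A gene high in hilum and epidermis has its folds elsewhere lowered, since the mean of the other 7 holds both of them.

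CHI4A belongs to the chalcone isomerase family, in the type that in other plants binds chalcone synthase rather than closing chalcones itself. Its signals were 33008 and 37712 in hilum, 22136 and 26867 in epidermis, 14689 and 11798 in whole seed and 11700 and 8127 in suspensor. They were 3310 and 3792 in embryo proper, 1118 and 1983 in endothelium, 1067 and 1341 in outer integument and 1044 and 832 in inner integument. Endosperm had 144 and 303, the lowest of all groups, without overlap with any other. The arrays of embryo proper and suspensor all lay above those of endothelium and both integuments. Hilum and epidermis were not separated (adjusted p = 0.393), nor were whole seed and suspensor (0.362). Epidermis and whole seed missed the threshold (0.0629), but epidermis passed as higher with the mean of both probe sets (0.00885), with median centring (0.0353), with a filter at 300 (0.0495) and without any single array of endosperm or endothelium (0.0316 to 0.0484). The suspensor was 2.75-fold above embryo proper (adjusted p = 0.00221), embryo proper 2.38-fold above endothelium (0.00764), and inner integument 4.46-fold above endosperm (3.63e-05). The step between embryo proper and endothelium no longer passed without endothelium array 1 (0.147) or embryo proper array 2 (0.0712), or with the mean of both probe sets (0.157).

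Against the mean of the other 7, CHI4A was 15.7-fold higher in hilum (log2 fold 3.97 ± 0.24, adjusted p = 2.71e-09), 10.3-fold higher in epidermis (3.36 ± 0.24, 2.45e-08) and 3.61-fold higher in suspensor (1.85 ± 0.24, 1.07e-05). It was lower in endosperm, by 22.4-fold (log2 fold -4.49 ± 0.24, 1.74e-10). The size of this fold, and of the step from inner integument to endosperm, depends in part on the background. Background was 123 and 160 on the endosperm arrays. The endosperm fold was 13.5 with the mean of both probe sets and 8.14 with the dimmer one, which read under background there. The log2 folds of -2.02 in inner integument, -1.61 in outer integument and -1.25 in endothelium also passed, while embryo proper did not (0.18, adjusted p = 0.650). The endothelium call was lost without endothelium array 1 (adjusted p = 0.111).

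CHI2-A is the other chalcone isomerase gene, and its pattern had 3 levels. Its signals were 34272 and 36499 in suspensor, 7526 and 11909 in epidermis, 9168 and 8713 in hilum and 7494 and 6894 in whole seed. In the remaining compartments they ran from 189 to 535, a separate and much lower level. Those low values were 244 and 189 in embryo proper, 193 and 226 in endosperm, 262 and 520 in endothelium, 260 and 346 in inner integument and 535 and 254 in outer integument, each above the background of its own array. The suspensor stood 3.74-fold above epidermis (adjusted p = 0.000601) and 3.96-fold above hilum (0.000373). Epidermis, hilum and whole seed formed a middle level within which no neighbours differed (adjusted p = 0.955 and 0.569). Whole seed was 19.5-fold above endothelium (2.02e-07), and none of the 5 lowest groups differed from its neighbour.

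Against the mean of the other 7, CHI2-A was 46.2-fold higher in suspensor (log2 fold 5.53 ± 0.27, adjusted p = 4.55e-11), 10.2-fold higher in epidermis (3.36 ± 0.27, 9.18e-08) and 9.58-fold higher in hilum (3.26 ± 0.27, 9.97e-08). It was lower in the other 5 compartments, with log2 folds between -2.93 in endosperm and -1.99 in endothelium. Embryo proper and suspensor are parts of 1 embryo, yet CHI2-A was 165-fold lower in embryo proper (log2 fold -7.36 ± 0.36, adjusted p = 1.66e-10). Its embryo proper signals were 244 and 189, where background was 133 and 143. The size of this fold, like that of the 46.2-fold rise, therefore depends in part on the background. For CHI4A the same pair differed by a log2 fold of -1.46 (0.00221). Of all tested probe sets 24.6% differed between these compartments.

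F3H makes the dihydroflavonols from which flavonols, anthocyanins and proanthocyanidins derive. Its signals were 52354 and 65160 in hilum, 45357 and 71198 in epidermis and 25667 and 21294 in whole seed. They were 6993 and 6988 in endothelium, 5987 and 7449 in inner integument, 3455 and 3678 in outer integument, 2901 and 1414 in suspensor, 1531 and 2569 in endosperm and 1199 and 972 in embryo proper. With this brighter probe set every group was above background for F3H, and the inner coat layers held a middle level above the embryo and endosperm. Hilum and epidermis were not separated (adjusted p = 0.987). Epidermis was 2.43-fold above whole seed (0.00630), and whole seed 3.34-fold above endothelium (0.000394). The first of these 2 differences was 1.33-fold with quantile normalization (0.329) and 1.45-fold with the mean of both F3H probe sets (0.266), and was lost without epidermis array 2 (0.111) or whole seed array 2 (0.0713). The dimmer F3H probe set ran the other way, with 12589 and 10978 in epidermis against 13359 and 13916 in whole seed. The fold between whole seed and endothelium was 5.61 with quantile normalization and 12.2 with the mean of both probe sets. Further down, inner integument was above outer integument by 1.87-fold (0.0418) and endosperm above embryo proper by 1.84-fold (0.0453), calls that rest on single arrays. The first was lost without any of the 4 arrays of its groups (0.0737 to 0.216), and the second without embryo proper array 1 (0.0835) or 2 (0.255) or endosperm array 2 (0.421).

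Against the mean of the other 7, F3H was 12.8-fold higher in hilum (log2 fold 3.68 ± 0.23, adjusted p = 3.61e-09) and 12.4-fold higher in epidermis (3.63 ± 0.23, 6.64e-09). It was lower in embryo proper (log2 fold -2.90), suspensor (-1.86), endosperm (-1.90) and outer integument (-0.93). Endothelium (0.18, adjusted p = 0.658) and inner integument (0.10, 0.785) did not pass. The outer integument call was lost without outer integument array 1 (0.0945) or array 2 (0.0514).

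FLS1 makes flavonols from dihydroflavonols. Its signals were 629 and 437 in epidermis, 416 and 169 in endothelium, 262 and 187 in hilum, 296 and 156 in embryo proper and 253 and 160 in whole seed. They were 155 and 69.8 in endosperm, 182 and 6.6 in outer integument, 47.3 and 69.4 in inner integument and 18.9 and 47.4 in suspensor. The 2 epidermis arrays lay above all 16 others, which overlapped widely. Both suspensor, both inner integument and both outer integument arrays were under their background, as were endosperm array 2 and hilum array 2. In the order of groups no neighbours differed, and epidermis and endothelium were not separated (adjusted p = 0.365).

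Against the mean of the other 7, FLS1 was 4.35-fold higher in epidermis (log2 fold 2.12 ± 0.48, adjusted p = 0.00497), lower in suspensor (-1.75 ± 0.48, 0.0103) and lower in inner integument (-1.48 ± 0.48, 0.0272). The hilum value of 0.70 ± 0.48 did not pass (0.338). The epidermis call was lost without epidermis array 1 (0.0850). The inner integument call was lost without either of its arrays (0.245 and 0.0887). The suspensor call was likewise lost (0.0826 and 0.0754), and as both were under 50 its fold depends on that floor.

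**Figure D2:**
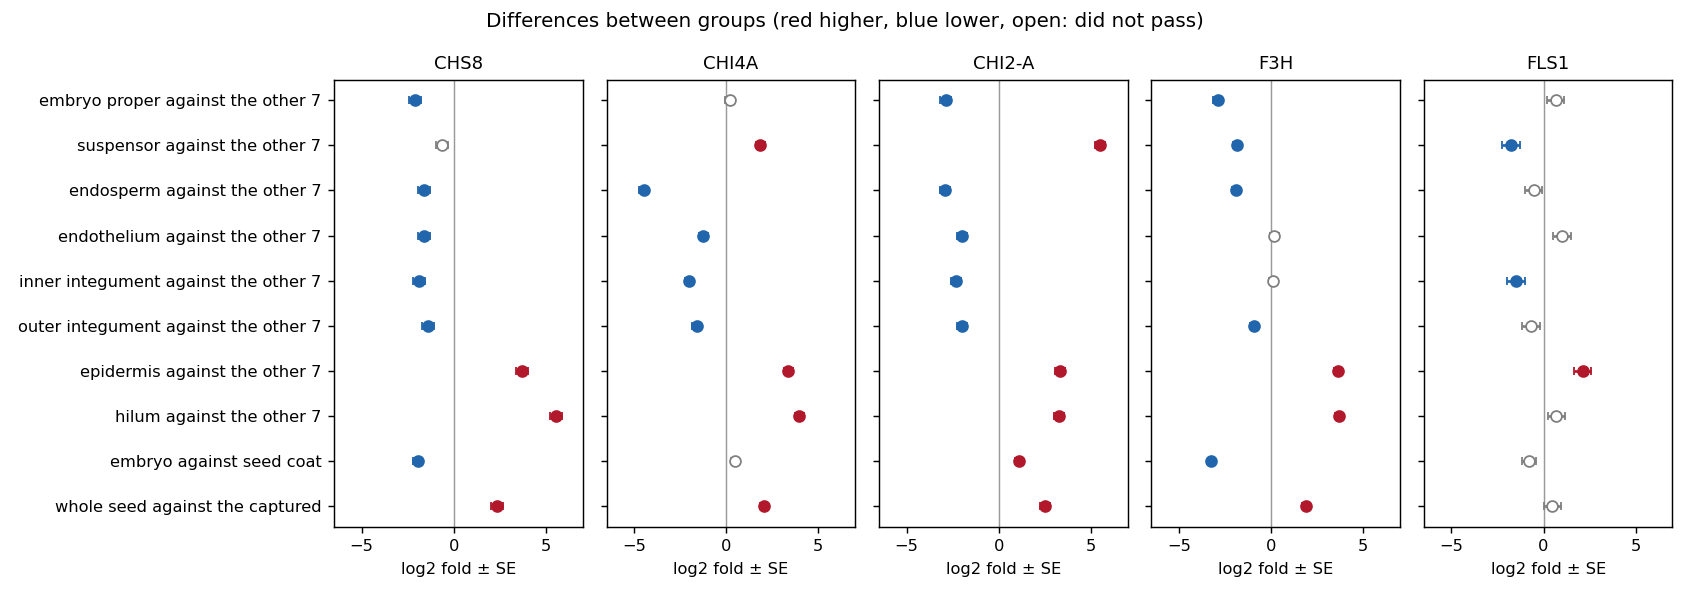
Log2 fold with its SE for each early flavonoid gene in 10 comparisons, with filled red points for higher, filled blue points for lower and open grey points for differences that did not pass an adjusted p of 0.05. All 5 points for epidermis and 4 of 5 for hilum are red, while the suspensor holds red points for CHI4A and CHI2-A beside blue points for F3H and FLS1.

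Counted over the genes, 5 of 5 were higher in epidermis, where 7.9% of all tested probe sets were called higher and 6.35% lower, and the median log2 fold of the 5 genes was 3.36 against 0.03 over all. In hilum 4 of 5 were higher, the exception being FLS1, with 12.0% of probe sets called higher, 9.19% lower, and medians of 3.68 and 0.08. The suspensor was split, with CHI4A and CHI2-A higher (12.7% of probe sets higher) and F3H and FLS1 lower (14.3% lower). In endosperm 4 of 5 were lower, all but FLS1 (15.4% of probe sets lower, 15.1% higher). In inner integument 4 of 5 were lower, all but F3H (13.9% of probe sets lower and 13.9% higher). The FLS1 calls in suspensor and inner integument were made on signals under background and did not hold without either array of the group. In epidermis the FLS1 call was lost without array 1 and with no floor (adjusted p = 0.0602), and its second probe set did not pass (0.169). In outer integument 4 of 5 were lower, all but FLS1 (10.4% lower, 11.7% higher). Embryo proper had 3 lower, CHS8, CHI2-A and F3H (11.2% of probe sets lower, 12.3% higher). Endothelium also had 3 lower, CHS8, CHI4A and CHI2-A (8.8% lower, 8.76% higher). Without its own array 2, outer integument had 2 lower calls. The folds in these 6 compartments are lowered by the comparison with a mean that holds hilum and epidermis.

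Among the 36 pairs of groups, F3H differed in 32, CHI4A in 30, CHI2-A in 23, CHS8 in 21 and FLS1 in 12. The share of all tested probe sets that differed in a pair ran from 8.31% to 31.1%, with a median of 23.9%. Set directly against epidermis, from which 24.3% of probe sets differed in suspensor, the suspensor was lower for CHS8 by 13.6-fold (adjusted p = 2.46e-06), for F3H by 28.1-fold (1.70e-09) and for CHI4A by 2.50-fold (0.00486), whereas CHI2-A was higher. The CHI4A difference was lost without suspensor array 2 (0.0609) or epidermis array 2 (0.0527). Against hilum, with 27.8% of probe sets differing, the suspensor was lower by 42.3-fold for CHS8 (2.92e-08), 28.8-fold for F3H (1.42e-09) and 3.62-fold for CHI4A (0.000241). With the mean of all probe sets of a gene, the suspensor was lower than epidermis by 5.33-fold for CHS8 and 49.2-fold for F3H, and lower than hilum by 12.3-fold for CHS8, 62.1-fold for F3H and 5.55-fold for CHI4A.

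Taking embryo proper and suspensor as the embryo and the 5 coat layers as the seed coat, CHS8 (log2 fold -1.96 ± 0.26, adjusted p = 8.55e-06) and F3H (-3.25 ± 0.18, 1.20e-10) were lower in the embryo. The coat mean holds the high hilum and epidermis. For CHS8 the suspensor arrays (308 and 314) lay above those of endothelium and both integuments (134 to 241). The suspensor did not pass against outer integument (0.269). Over all probe sets 15.9% were lower in the embryo and 14.6% higher. CHI2-A was 2.15-fold higher there (1.11 ± 0.21, 0.000535), a mean over a high suspensor and a low embryo proper. CHI4A (0.46, 0.0784) and FLS1 (-0.77, 0.137) did not pass. For CHI4A the call depends on the scaling, since it passed as higher in the embryo with quantile normalization and with median centring.

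In whole seed, against the mean of all 8 captured compartments, 4 of 5 genes were higher, where 11.8% of probe sets were called higher and 7.56% lower. The folds were 5.81 for CHI2-A (log2 fold 2.54 ± 0.27, adjusted p = 3.37e-06), 5.10 for CHS8 (2.35 ± 0.32, 5.01e-05), 4.15 for CHI4A (2.05 ± 0.24, 9.56e-06) and 3.73 for F3H (1.90 ± 0.23, 1.20e-05). FLS1 did not pass (0.48, 0.531). Whole seed mixes the compartments, while the comparison takes the mean of their log2 signals. For a gene high in few compartments that mean lies under the log2 of the mean signal. Such a gene can therefore come out higher in whole seed without exceeding the mean signal of its compartments. Whether any of the 4 rises is of this kind was not tested. Whole seed lay below hilum for CHS8, CHI4A and F3H, with hilum higher (24.7% of probe sets differed) by log2 folds of 2.51 (adjusted p = 0.000400), 1.42 (0.00353) and 1.32 (0.00398). The F3H difference from hilum was lost with quantile normalization (0.292) and with the mean of its probe sets (0.0504), and that of CHS8 was 1.75-fold and did not pass with the mean of its probe sets (0.198). Whole seed and captured tissue also differ in how the tissue was taken and the RNA isolated, so tissue and method cannot be told apart, and in whole seed fewer cells of a type and less RNA per cell cannot be told apart.

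The probe sets of a gene differed in their folds and, apart from those of CHI4A, in the order of groups. For CHS8, the second brightest probe set, whose name ends in s, had 6345 and 4510 in hilum and 1490 and 2003 in epidermis, with log2 folds of 5.15 ± 0.48 (adjusted p = 4.02e-07) and 3.29 (8.73e-05) against the other 7. The third, also ending in s, had 947 and 410 in hilum, 316 and 290 in epidermis and 799 and 930 in whole seed, its highest group, and passed as higher in hilum (1.22e-06) and epidermis (0.000239). Its hilum fold was 9.60, and 6.32 or 14.6 with 1 hilum array left out. The fourth, ending in x, had 310 and 292 in hilum and 236 and 39.1 in epidermis, and passed in hilum (0.000306) but not in epidermis (0.297). The fifth, ending in A1_at, read above 100 in outer integument alone, at 172 and 152, which is at or under the background there. The suffixes s and x mark probe sets that may bind several related transcripts, and the chalcone synthase genes of soybean are close copies, so signal given to CHS8 can come in part from its relatives.

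For F3H, the second probe set, which has no s or x in its name, had 20201 and 16421 in hilum and 12589 and 10978 in epidermis, against 30.9 to 420 in the other captured compartments. Its log2 folds were 5.88 ± 0.35 in hilum (adjusted p = 1.73e-09) and 5.15 ± 0.35 in epidermis (1.11e-08), larger than those of the brighter probe set, which ends in s. The middle level in endothelium and inner integument seen with the brighter probe set was 291 and 318 in endothelium and 290.0 and 420 in inner integument with the dimmer one. With the dimmer one, both embryo proper arrays, suspensor array 1, endosperm array 1 and outer integument array 2 were under their background. For CHI4A, the second probe set, ending in S1_at, had 6852 and 6650 in hilum, 3640 and 4549 in epidermis and 822 and 766 in suspensor. It passed as higher in hilum (log2 fold 3.97 ± 0.28, 1.43e-08) and epidermis (3.13, 3.02e-07) but not in suspensor (0.44 ± 0.28, 0.281), and it was lower in the embryo than in the seed coat (-0.86, 0.00559), the opposite sign to the brighter probe set. Against the other 7, the suspensor call of CHI4A passed with the brighter probe set, which may bind related transcripts, and not with the dimmer one. With the dimmer one, both suspensor arrays lay above all arrays of embryo proper, endosperm, endothelium and both integuments, which read 87.1 to 457. The mean of the other 7 also holds hilum and epidermis. For FLS1, the second probe set had 166 and 322 in epidermis and passed in neither epidermis (0.169) nor hilum (0.308).

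**Figure D3:**
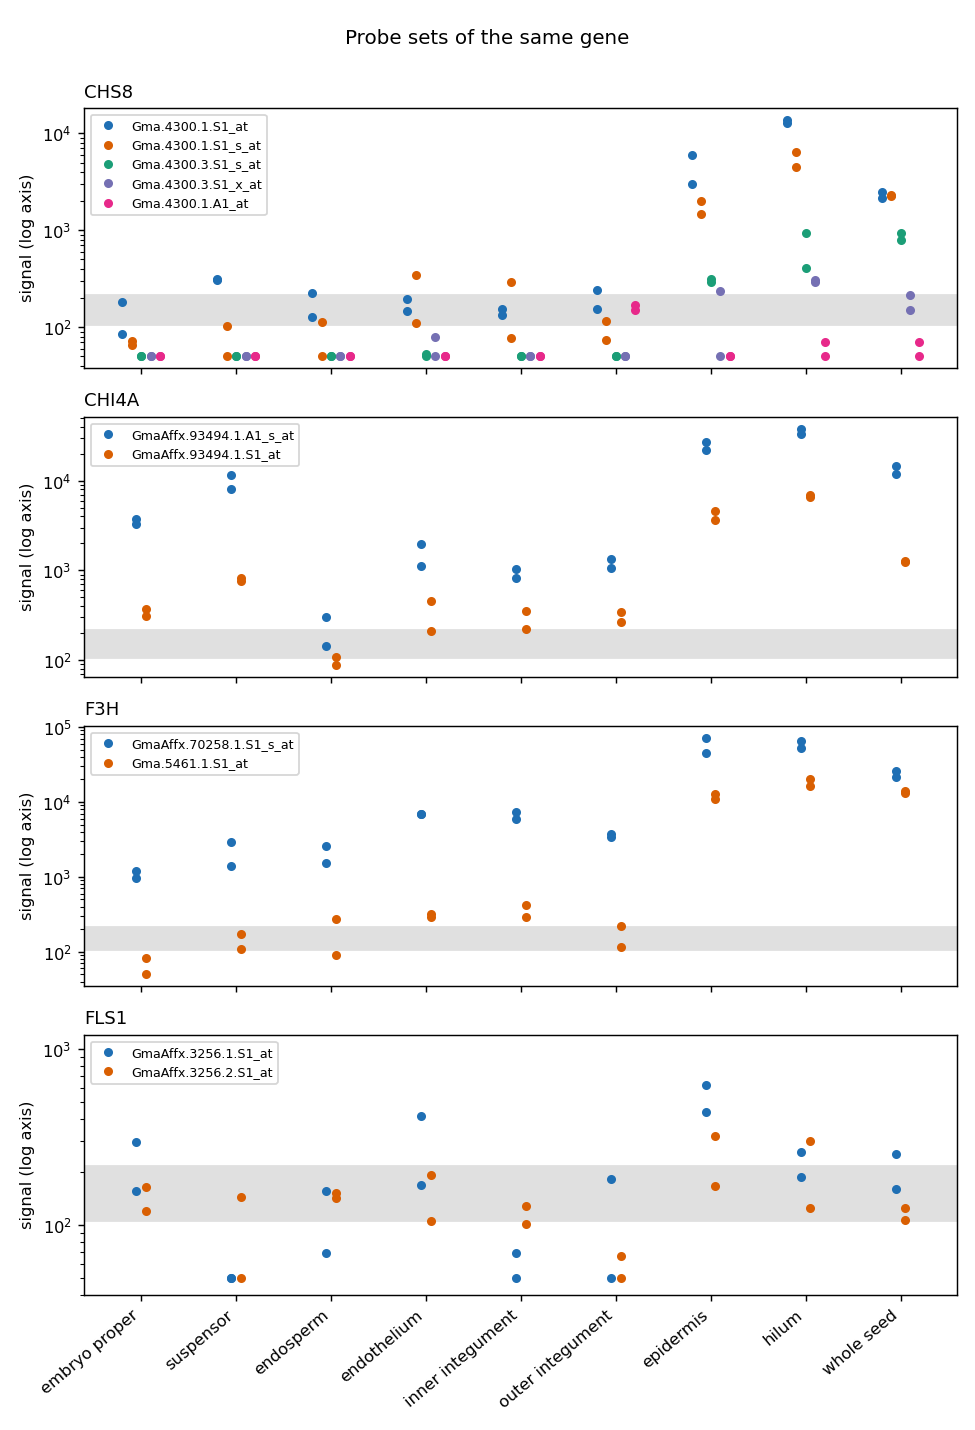
Signal on each array (log axis, arbitrary units) of every probe set of CHS8, CHI4A, F3H and FLS1 in the 9 groups, 1 colour per probe set. Signals under 50 are drawn at 50, and the grey band is the range of the background measure, 106 to 216. The probe sets of CHI4A and F3H are all highest in hilum or epidermis among captured tissue, while that of CHS8 ending in A1_at is raised in outer integument alone.

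Other genes of the pathway were read in lists. Of 7 upstream phenylpropanoid genes, which lead from phenylalanine to coumaroyl-CoA, 2 were higher and 1 lower in hilum (12.0% and 9.19% of all probe sets), and 3 higher and 1 lower in epidermis (7.9% and 6.35%). The hilum rises included 4CL4, a coumarate-CoA ligase gene, by 20.9-fold (adjusted p = 2.85e-08), and C4H, the cinnamate hydroxylase gene, by 3.82-fold (4.21e-07). In endosperm, where CHI4A was lowest, 5 of the 7 were lower and 0 higher (15.4% and 15.1% of all probe sets), with C4H 18.8-fold lower (9.51e-12). The count higher in endosperm was 2 with median centring, and 1 without endothelium array 1 or without either epidermis array. In suspensor 4 were higher and 1 lower (12.7% and 14.3%). The low count was not particular to endosperm, since in outer integument 0 were higher and 6 lower (11.7% and 10.4%). In endothelium 4 were higher and 0 lower (8.76% and 8.8%). Inner integument had 3 higher and 1 lower (13.9% and 13.9%), and embryo proper 1 higher and 3 lower (12.3% and 11.2%).

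The anthocyanin and proanthocyanidin genes use the product of F3H. Of 6 tested, 5 were higher and 0 lower in hilum (median log2 fold 5.25, against 0.08 over all probe sets, of which 12.0% were higher). In epidermis 4 were higher and 0 lower (median 4.09 against 0.03, with 7.9% of probe sets higher). The anthocyanidin synthase gene ANS2 had signals of 36823 to 39798 in hilum and 27263 to 36876 in epidermis, against 61.1 to 1086 in the other captured compartments. Its folds were 58.2 in hilum (adjusted p = 2.84e-10) and 46.9 in epidermis (1.03e-09). The anthocyanidin reductase gene ANR1 was 87.8-fold higher in hilum (5.61e-10), and the dihydroflavonol reductase gene DFR1 was 58.7-fold higher in epidermis (2.34e-09). In suspensor DFR1 was 12.0-fold lower (1.35e-07), with F3H also lower there, while UGT78K1, a gene for a glucosyltransferase acting on anthocyanidins, was 72.1-fold higher (2.70e-07).

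The other chalcone enzymes, 7 tested genes for further chalcone synthases, isomerases and reductases, were counted next. In suspensor, where CHI2-A was highest, 4 of the 7 were higher and 0 lower (median log2 fold 2.92, against -0.11 over all probe sets, of which 12.7% were higher). The chalcone reductase gene CHR5 had 2839 and 3667 in suspensor and at most 92.3 in any other group, so its 61.2-fold rise (adjusted p = 5.86e-11) depends on the background. The isomerase gene CHI1A had 13118 and 17861 in suspensor and at most 2829 elsewhere, and was 20.6-fold higher (1.60e-09). In hilum 1 of the 7 was higher and 3 lower (12.0% and 9.19% of all probe sets), with CHS1 2.82-fold higher (0.0135) and CHI1B1, which was under background there, 3.95-fold lower (0.000919). All 4 of these hilum calls were lost without hilum array 2. In epidermis 0 were higher and 2 lower, CHI1B1 and CHR5. Both genes lay under background on both epidermis arrays. The CHI1B1 call was lost without epidermis array 1 (0.0695) or array 2 (0.0991), and the CHR5 call (0.0439) was lost when any of 14 of the 18 arrays was left out.

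Of 13 tested isoflavonoid genes, 4 were higher and 2 lower in suspensor (12.7% and 14.3% of all probe sets), and 4 higher and 1 lower in hilum (12.0% and 9.19%). The isoflavone synthase gene IFS2, which opens that branch, had 2139 and 3529 in suspensor and at most 140 elsewhere, and was 42.7-fold higher (1.32e-08), again on a low base. HIDH, the dehydratase gene that completes the isoflavone, was 21.4-fold higher in hilum (1.73e-09) and 10.3-fold higher in epidermis (5.28e-08), the compartments in which IFS2 was under background. Of 4 tested regulators, 1 was higher in suspensor (12.7% of all probe sets) and 0 passed in hilum or epidermis. MYB173, another regulator, missed the threshold in epidermis (log2 fold -0.97, 0.0580) and passed as lower there with quantile normalization (0.0351), with median centring (0.0417) and without suspensor array 1 (0.00440) or array 2 (0.0268), the last of which also let it pass as higher in hilum (0.0385). The regulator higher in suspensor was MYB176, known in soybean to act on CHS8, at 2.13-fold (0.00114). Its signals were 1849 and 2685 in suspensor and 670 to 1689 in the other groups, and it did not pass without suspensor array 2 (0.0584). In hilum, where CHS8 was highest, the MYB176 log2 fold was -0.03 (0.939).

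**Figure D4:**
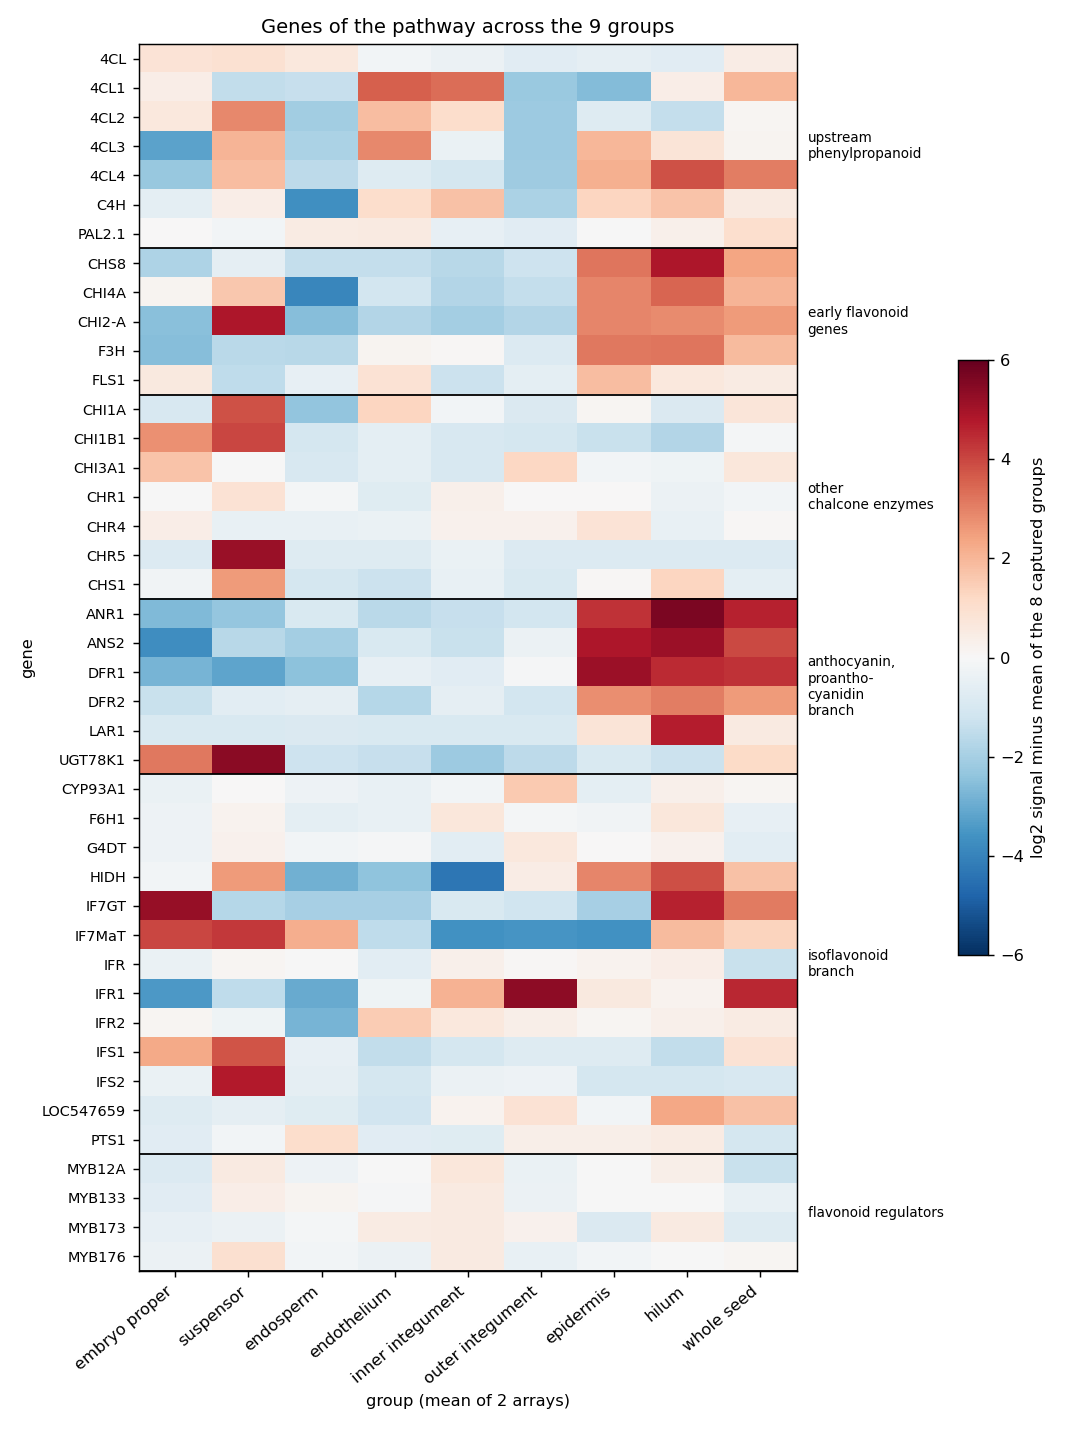
Mean log2 signal of each tested pathway gene in the 9 groups, minus the mean of the 8 captured groups, with red above and blue below that mean and genes grouped by step. Red columns in hilum and epidermis join CHS8, CHI4A and F3H with ANS2, ANR1 and DFR1, and the suspensor column is red for CHI2-A, CHR5, CHI1A and IFS2.

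Likeness of pattern was taken as Pearson's r of the mean log2 signals over the 8 captured compartments, among 928 named genes, and it describes 8 points that share arrays. The 3 genes most like CHS8 were ANR1 (0.968), WRKY29 (0.965) and DFR2 (0.965), and those most like F3H were ACSL2 (0.972), DFR1 (0.971) and ANS2 (0.966). CHI4A was most like GASA32 (0.927), HSF-01 (0.896) and HIDH (0.885), and CHI2-A most like PRP2 (0.949), WRKY50 (0.948) and NIR (0.940). FLS1 was most like NDR1b (0.905), PIP1-6 (0.869) and CCS52 (0.844). Between the early genes themselves, r was highest for CHS8 and F3H (0.884), 0.824 for CHI4A and CHI2-A, and 0.812 for CHS8 and CHI4A. It was 0.6435 for CHI4A and F3H, and 0.487 for F3H and CHI2-A. FLS1 and CHI2-A had the lowest, 0.0708.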

How the data were processed

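Gene activity was measured on the Affymetrix Soybean Genome Array in 9 groups of 2 arrays, with groups taken from the labels. Per the labels' protocols, 2 ng of total RNA was amplified (RiboAmp OA) and labelled with an ENZO kit for every group. The values in the deposited table are an intensity for each probe set, on a linear scale, which the authors computed in GCOS 1.3, per the submitters' processing notes. On each array the 2% trimmed mean was 500, as measured here, and 12 values were 0.

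Signals under 50 were set to 50 and log2 was taken. Tests ran on the 31961 of 37593 soybean probe sets that reached 100 on 2 or more arrays, with lmFit and eBayes with a variance trend, in limma 3.58.1 under R 4.3.3, on means of the 9 groups. The Benjamini-Hochberg adjustment was made for each contrast on its own. Arrays give no read depth, and their number limits the precision.

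The genes and lists were chosen with earlier results of these data known. Lists were name patterns on symbols and synonyms, from which 7 chance matches of spelling were removed (CHIA1, MYB64, MYB120, MYB121, MYB124, MYB127 and MYB128). By rule, the named genes are the 5 early genes, the 2 genes of a list with the smallest p in a comparison, and the 3 most alike in pattern. The value of MYB176 in hilum was added after its values were seen. Symbols come from the platform's annotation, which can be old. Alternatives changed the floor, the filter, the normalization, the variance trend, the probe set rule and the arrays used. No sequences or genome positions are given.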

Additional observations from a re-analysis of the deposited data

How the results depend on the processing

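Over 30 alternatives, 18 of which left out 1 array, the 50 log2 folds of the early genes against the other compartments, between embryo and seed coat and in whole seed were recomputed 1495 times. Of these, 1459 kept their sign and their side of the threshold, 23 no longer passed, 6 newly passed, 7 that did not pass either way changed sign, and 0 called values reversed. The count of genes lower in suspensor was 1 rather than 2 with a floor of 100, and 1 to 2 with 1 array left out, the gene lost being FLS1. The count higher in the embryo than in the seed coat was 2 rather than 1 with quantile normalization and with median centring, and 1 to 2 with 1 array left out, the gene gained being CHI4A. The count lower in inner integument was 2 rather than 4 with the mean of all probe sets of a gene (CHS8 at an adjusted p of 0.0582 and FLS1 at 0.0970), and that in outer integument was 2 to 4 with 1 array left out. Of 40 neighbouring pairs in the order of groups 11 passed, and with the captured arrays alone 5 passed of the 30 pairs such a fit can hold. With the mean of all probe sets the CHS8 folds were 9.66 in hilum and 3.72 in epidermis, the F3H folds 27.4 and 21.0, the CHI4A fold in suspensor 2.21, and the F3H fold in whole seed 9.92. FLS1 in epidermis missed the threshold with no floor (0.0602). Without epidermis array 2, inner integument array 1 and outer integument array 1 together, FLS1 in inner integument (0.224) and F3H in outer integument (0.110) missed it.

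The same settings for the other lists and probe sets were added after seeing the data. Without hilum array 2 the count of upstream genes lower in hilum was 0 rather than 1, and without either hilum array so was that of isoflavonoid genes. Without suspensor array 1 the isoflavonoid genes lower in suspensor were 1 rather than 2, and without suspensor array 2 the regulators had 0 higher and 1 lower there. Median centring shifted the median of all probe sets by 0.23 in endosperm, 0.20 in endothelium, -0.21 in hilum and -0.17 in whole seed, and quantile normalization by 0.13 in endosperm and -0.11 in hilum. The labels do not say whether the replicate numbers pair the arrays. Over 36 pairs of groups the replicate differences correlated at -0.0731 to 0.0829. That shows no large shared difference, but it cannot exclude a small one or one of few genes. With a replicate block, F3H in endosperm against embryo proper no longer passed (adjusted p = 0.0518), CHR5 in epidermis did not pass (0.0548), and no count of the early genes changed. No detection calls were used, and calls that involve groups near background, as for FLS1, can depend on the floor. FLS1 in embryo proper passed against suspensor (adjusted p = 0.0206) but not with a floor of 100 (0.119). Near background, a difference that did not pass does not show that the groups are equal.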
